A study of Bos taurus with 7 samples.

Results

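Expression of 10 genes of the actin cytoskeleton was described in bovine preantral follicles, namely the actins *ACTB* and *ACTG1*, the thymosins *TMSB10* and *TMSB4X*, the actin-binding genes *CFL1* and *PFN1*, the myosin genes *MYL6* and *MYH9*, and the cortex linkers *EZR* and *MSN*. They were chosen by name, with earlier results of these data known. All 10 were found among the 23704 genes matched in the files, through 12 of the 76123 RefSeq transcripts. The libraries came from whole follicles of young Holstein Friesian dairy cows, isolated by mincing and sieving of the ovarian cortex and picked by morphology. There were 4 libraries of primary follicles (PF), in which the oocyte lies within 1 complete layer of cuboidal granulosa cells, and 3 libraries of early secondary follicles (SF), in which granulosa cells form several layers. Follicles of both groups were freshly collected and went through the same short recovery in medium with FSH, insulin, transferrin and selenite, with no other treatment. Each library was a pool of follicles, with oocyte and granulosa RNA measured together, and SF were set against PF to find genes whose expression differs between the stages.

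Actin is kept in the cell as monomers and as filaments. Thymosins hold monomers in reserve, profilin feeds them to growing filament ends, and cofilin cuts and disassembles old filaments. Nonmuscle myosin II, built of heavy and light chains, pulls on the filaments, and ezrin and moesin tie them to the plasma membrane. In the follicle, actin shapes the cuboidal granulosa cells and their contacts with the oocyte, and in the oocyte it carries the spindle and the polarity of the cortex.

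Libraries held from 18788105 to 23764615 estimated counts. Values are given as TPM, an abundance corrected for transcript length that allows levels of different genes to be compared, or as a share of all estimated counts of a library. The study left PF replicate 4 out of its comparison, and the main test here did the same, so group means below are over PF replicates 1 to 3 and the 3 SF libraries unless stated. Markers of oocytes and granulosa cells were present. Of 18 matched oocyte markers, 18 reached 1 TPM in all of PF replicates 1 to 3 and 16 in all 3 SF libraries. Of 16 granulosa markers, 13 and 14 reached 1 TPM in all libraries of these groups. SF replicates 1 and 2 each had 18 oocyte markers at 1 TPM, and SF replicate 3 had 16. The summed oocyte markers ran from 3353 to 6428 TPM in PF replicates 1 to 3 and from 279 to 2268 TPM in SF. The summed granulosa markers ran from 2289 to 3490 TPM and from 8107 to 8299 TPM, of which *GSTA1* alone was 913 to 1604 TPM and 3935 to 5141 TPM. Of 15 granulosa markers tested, 10 were called higher in SF by the main test and 0 lower. *FOXL2* overlapped between these groups, and *WT1* lay lower in every SF library. PF replicate 4 stood apart, with 560 TPM of oocyte markers and 6955 TPM of 11 stromal fibroblast markers. These stromal markers summed to 254 to 643 TPM in the other 6 libraries, where *DCN* alone was 145 to 573 TPM. In PF replicate 4 *DCN* (168 TPM), *FBLN1* (11.6 TPM) and *OGN* (0) were not raised. The remaining stromal markers were higher there than in any other library. These marker levels moved with the stage or with PF replicate 4 in the same way as some of the genes below, and their part in those results was not tested. Since the libraries are bulk samples, fewer cells of a type and less RNA per cell cannot be told apart.

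Together the 10 genes held 1.23%, 1.32% and 1.89% of all counts in PF replicates 1 to 3, 2.27% in PF replicate 4, and 1.71%, 2.22% and 2.75% in SF replicates 1 to 3. The share was thus lowest in PF replicates 1 and 2 and highest in SF replicate 3, and the groups overlapped. On average the share was 1.68% ± 0.488 over all 4 PF libraries and 2.23% ± 0.520 over the 3 SF libraries (SD), which is 1.33 times as high in SF. Without PF replicate 4 the PF mean was 1.48% ± 0.354 (SD, 3 libraries) and the ratio 1.51, the highest with any library left out, and without SF replicate 3 it was 1.17, the lowest. By summed TPM of all 7 libraries it was 1.14. The difference in means lay in the actins, although their share of counts also overlapped between the groups. By library the actins held 0.688%, 0.784%, 1.24% and 1.61% in PF replicates 1 to 4 and 1.22%, 1.76% and 2.19% in SF. *ACTB* and *ACTG1* held 0.904% ± 0.294 of the counts of PF and 1.72% ± 0.483 of those of SF (SD, 3 libraries each), while the thymosins held 0.224% ± 0.0661 and 0.193% ± 0.0194, and the other 6 genes 0.353% ± 0.0101 and 0.315% ± 0.0547. The actin share of the counts of the 10 genes was 55.8% to 71.2% in the 4 PF libraries and 71.3% to 79.5% in the 3 SF libraries, so the groups touched but did not overlap. No test was made of these sums, since the members had been chosen with earlier results known. The same limit holds for the tests of these genes and of their ratios below.

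**Figure D1:**
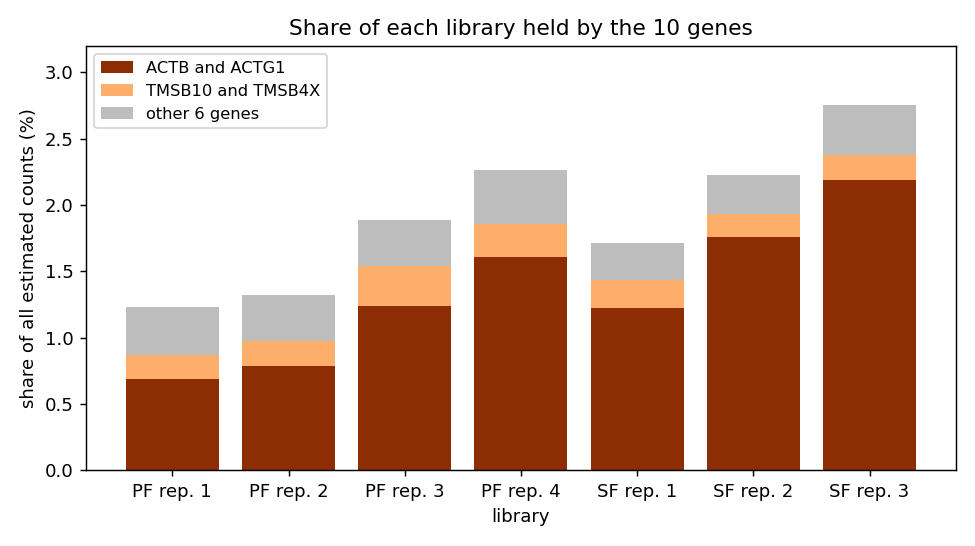
Share of all estimated counts of each library, in percent, held by the actins (dark), the thymosins (orange) and the other 6 genes (grey), as stacked bars for the 4 PF and 3 SF libraries. The bars reach 1.23% in PF replicate 1 and 2.75% in SF replicate 3, and most of the difference is in the actin segment.

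By mean TPM in PF, *TMSB10* stood first and was above *ACTB* in every library of PF replicates 1 to 3. *ACTB*, *TMSB4X* and *ACTG1* followed, with ranges that overlapped from each gene to the next, and then *MYL6*, *PFN1*, *EZR*, *CFL1*, *MSN* and *MYH9*. Only *PFN1* and *EZR* overlapped among those last 6. In SF the order began with *ACTB*, *ACTG1* and *TMSB10*, whose neighbouring ranges overlapped, and *TMSB4X* came after them with no overlap with *TMSB10*. *MYL6*, *EZR*, *CFL1* and *PFN1* overlapped each with the next, and *MSN* and *MYH9* were again the lowest. The levels spanned from 2.09 TPM of *MYH9* in PF replicate 2 to 10530 TPM of *ACTB* in SF replicate 3.

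**Figure D2:**
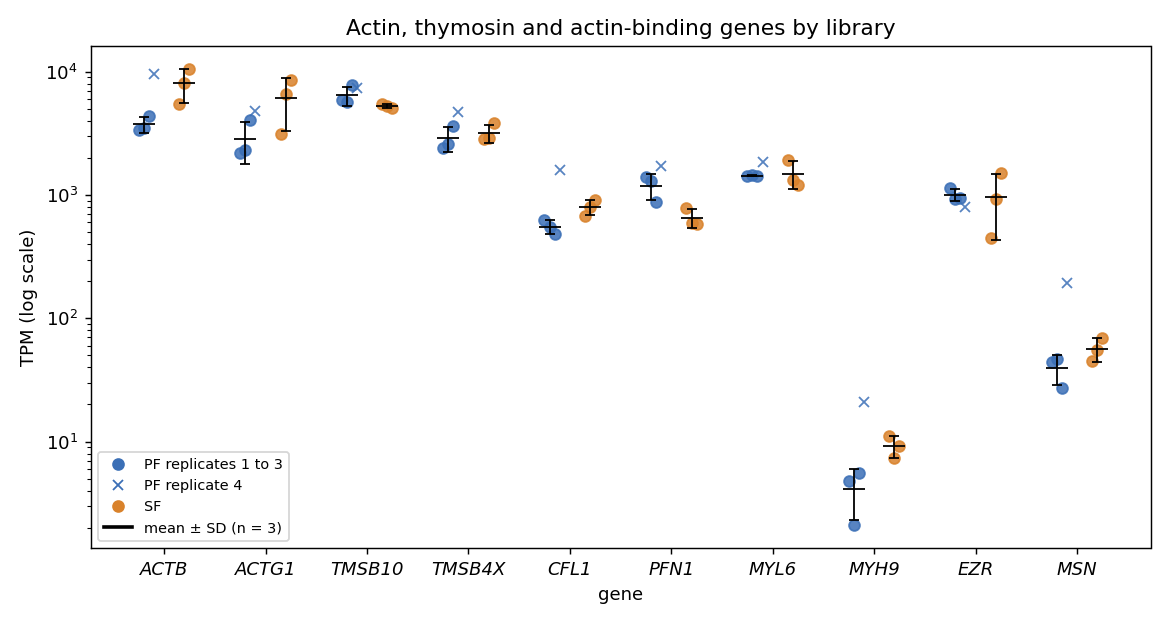
TPM of the 10 genes per library on a log axis. Circles are PF replicates 1 to 3 (blue) and SF (orange), crosses are PF replicate 4, and bars give the mean ± SD (n = 3). The SF circles of *ACTB* lie above those of PF and the SF circles of *PFN1* below them, and PF replicate 4 reaches 193 TPM for *MSN*, against 27.4 to 69.8 TPM in the other libraries.

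Of the 10 genes, DESeq2 called 1 higher and 1 lower in SF at an adjusted p below 0.05, where it called 19.1% of the 15056 genes tested, 8.14% higher and 11.0% lower. The count for the 10 genes was therefore near that of all genes. The called genes were *ACTB*, which rose, and *PFN1*, which fell. The median log2 fold change of the 10 genes was 0.45, against 0.02 over all genes tested. edgeR tested 14293 genes and called 0, with 3844 at an unadjusted p below 0.05 and a smallest adjusted p of 0.052. Neither call, nor any other DESeq2 call given below, was therefore shared by edgeR.

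*ACTB* encodes the beta-cytoplasmic actin of nonmuscle cells. Its level was 3377, 3471 and 4413 TPM in PF replicates 1 to 3, 9533 TPM in PF replicate 4, and 5504, 8165 and 10530 TPM in SF replicates 1 to 3. The SF libraries lay above PF replicates 1 to 3, but PF replicate 4 lay within the SF range. The log2 fold change of SF over PF was 1.20 ± 0.41 (SE, DESeq2 adjusted p = 0.022). It no longer passed when PF replicate 1 or PF replicate 2 was dropped (DESeq2 adjusted p = 0.13 each), when SF replicate 2 or SF replicate 3 was dropped (0.075 and 0.073) and with PF replicate 4 kept (0.56), and over all alternatives the adjusted p ran from 3.6e-06 to 0.56. The difference of mean log2 TPM was 0.68 within library numbers below 40 (PF replicates 1 and 2 and SF replicate 1) and 1.07 within those above 40 (PF replicate 3 and SF replicates 2 and 3). Library numbers are the digits that open the library names, and the labels do not call them a batch.

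*ACTG1* encodes the gamma-cytoplasmic actin, which differs from the beta form in a few residues. It stood at 2185, 2310 and 4064 TPM in PF replicates 1 to 3, at 4772 TPM in PF replicate 4, and at 3122, 6615 and 8616 TPM in SF replicates 1 to 3. PF replicate 3 was above SF replicate 1, so the groups overlapped. SF differed from PF by 1.18 ± 0.54 in log2 (SE, DESeq2 adjusted p = 0.11), with a 95% interval from 0.12 to 2.23, as large as that of *ACTB* with a wider spread. It passed the test without PF replicate 3 (1.68, DESeq2 adjusted p = 0.0094), without SF replicate 1 (1.50, 0.028) and after adjustment for library number (0.75, 0.04). Because the transcripts of the actins are alike in their coding part, Salmon could have split reads between them.

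The muscle actins, which mark other cell types, were low outside PF replicate 4. *ACTA2*, the smooth muscle actin, lay at 7.83 to 50.9 TPM in the 6 other libraries and at 702 TPM in PF replicate 4, and *ACTG2* at 0 to 13.8 TPM and 125 TPM. *ACTC1* stayed at 0 to 0.169 TPM apart from 1.44 TPM in PF replicate 4. *ACTA1* was at 0 in all 4 PF libraries and in SF replicate 2, and at 3.56 and 0.510 TPM in SF replicates 1 and 3. None of the 3 of these with an adjusted p was called.

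*TMSB10*, thymosin beta 10, was the most abundant of the 10 genes in PF per transcript length. Its level was 5915, 5697 and 7746 TPM in PF replicates 1 to 3, 7341 TPM in PF replicate 4, and 5490, 5275 and 5039 TPM in SF replicates 1 to 3. Every SF library lay below every PF library in TPM, by a small margin to PF replicate 2. In share of counts *TMSB10* overlapped, with 0.118% in SF replicate 1 and 0.110% and 0.111% in PF replicates 1 and 2. Its log2 fold change did not pass (-0.20 ± 0.33, SE, DESeq2 adjusted p = 0.73, 95% interval -0.85 to 0.46) and changed sign without PF replicate 3 (0.11). Of all genes tested, 5.16% had every SF library below all 4 PF libraries in TPM and 7.64% had every SF library above them. Of the 10 genes, *TMSB10* and *PFN1* lay below and 0 lay above.

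*TMSB4X*, thymosin beta 4, stood at 2415, 2610 and 3658 TPM in PF replicates 1 to 3, at 4735 TPM in PF replicate 4, and at 2867, 2894 and 3813 TPM in SF replicates 1 to 3. The groups overlapped through PF replicate 3. In log2, the change was 0.24 ± 0.40 (SE, DESeq2 adjusted p = 0.73), with a 95% interval from -0.54 to 1.01. Summed per library, the thymosins ran from 8306 to 12076 TPM in PF and from 8169 to 8852 TPM in SF, whereas the actins ran from 5562 to 14305 TPM and from 8626 to 19146 TPM. In PF replicates 1 to 3 there were thus more thymosin than actin transcripts per length, and in PF replicate 4 and all SF libraries more actin.

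*PFN1*, profilin 1, was the called gene that fell. It stood at 1414, 1294 and 874 TPM in PF replicates 1 to 3, at 1714 TPM in PF replicate 4, and at 790, 595 and 579 TPM in SF replicates 1 to 3. All SF libraries were below all PF libraries, PF replicate 4 included. The log2 fold change was -0.72 ± 0.27 (SE, DESeq2 adjusted p = 0.042), a level in SF 0.605 times that in PF. The difference of mean log2 TPM was -0.78 within library numbers below 40 and -0.57 within those above 40. This call was lost with TMM factors (DESeq2 adjusted p = 0.064), with PF replicate 4 kept, where the fall was larger but more variable (-0.96 ± 0.34, 0.065), and when PF replicate 1, PF replicate 2, SF replicate 2 or SF replicate 3 was dropped (0.16, 0.15, 0.19 and 0.091), and over all alternatives the adjusted p ran from 8.4e-08 to 0.19.

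*CFL1*, cofilin 1, moved the other way. Its level was 628, 549 and 482 TPM in PF replicates 1 to 3, 1587 TPM in PF replicate 4, and 682, 794 and 905 TPM in SF replicates 1 to 3. The SF libraries lay above PF replicates 1 to 3 but far below PF replicate 4. The log2 fold change of 0.65 ± 0.27 (SE) had an adjusted p of 0.067 in DESeq2, passed with TMM factors (0.035) and was -0.01 with PF replicate 4 kept. The difference of mean log2 TPM was 0.22 within library numbers below 40 and 0.82 within those above 40.

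*MYL6*, the essential light chain of nonmuscle and smooth muscle myosin II, was the steadiest of the 10 in PF. It stood at 1425, 1457 and 1437 TPM in PF replicates 1 to 3, at 1860 TPM in PF replicate 4, and at 1930, 1335 and 1215 TPM in SF replicates 1 to 3. The coefficient of variation was 1.15% in PF and 25.6% in SF, and the SF libraries lay on both sides of PF replicates 1 to 3. Its log2 fold change was 0.14 ± 0.30 (SE, DESeq2 adjusted p = 0.79).

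*MYL6* was measured on 2 transcripts, a curated form of 691 bases and a predicted form of 732 bases. The predicted form made up 33.9%, 27.6%, 17.5% and 14.1% of the *MYL6* TPM in PF replicates 1 to 4, and 10.8%, 9.66% and 12.2% in SF replicates 1 to 3. Every SF library was below every PF library in this share. The split between forms was looked at after the values were seen and rests on how Salmon divided reads that fit both, so no test was made. For *EZR*, the other gene with 2 transcripts, the predicted form held 12.1% to 32.6% in PF and 15.6% to 26.4% in SF, with no such separation.

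*MYH9*, the heavy chain of nonmuscle myosin IIA, was the lowest of the 10. It stood at 4.76, 2.09 and 5.54 TPM in PF replicates 1 to 3, at 21.0 TPM in PF replicate 4, and at 11.1, 7.42 and 9.26 TPM in SF replicates 1 to 3, from 235 to 2098 estimated counts per library. The SF libraries were above PF replicates 1 to 3 and below PF replicate 4. The log2 fold change was 1.25 ± 0.52 (SE, DESeq2 adjusted p = 0.07). It passed without PF replicate 3 (1.67, DESeq2 adjusted p = 0.0068) and was 0.13 with PF replicate 4 kept. The difference of mean log2 TPM was 1.81 within library numbers below 40 and 0.58 within those above 40.

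*EZR*, ezrin, was the more variable of the cortex linkers in SF. Its level was 1132, 928 and 942 TPM in PF replicates 1 to 3, 801 TPM in PF replicate 4, and 448, 927 and 1501 TPM in SF replicates 1 to 3. SF replicates 1 and 3 were the lowest and the highest of all 7 libraries, on either side of the PF range. For *EZR* the log2 fold change was 0.08 ± 0.50 (SE, DESeq2 adjusted p = 0.94), with a 95% interval from -0.90 to 1.06. Within library numbers the difference of mean log2 TPM was -1.19 below 40 and 0.32 above 40, in opposite directions.

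*MSN*, moesin, stood at 44.6, 46.9 and 27.4 TPM in PF replicates 1 to 3, at 193 TPM in PF replicate 4, and at 45.2, 55.7 and 69.8 TPM in SF replicates 1 to 3. SF replicate 1 lay between PF replicates 1 and 2. The log2 fold change was 0.67 ± 0.35 (SE, DESeq2 adjusted p = 0.16) and turned to -0.45 with PF replicate 4 kept, where DESeq2 gave no adjusted p. *EZR* exceeded *MSN* in every library, by 4.14 times in PF replicate 4 and by 9.91 to 34.4 times in the others.

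Across the 10 genes, 5 had no overlap between PF replicates 1 to 3 and SF in TPM (*ACTB*, *TMSB10*, *CFL1*, *PFN1* and *MYH9*), where 32.7% of all genes tested had none. With PF replicate 4 kept, 2 had none, where 12.8% of all genes had none. The fold changes depended on the scaling of the libraries. With size factors from the granulosa markers all 10 log2 fold changes lay below 0, from -0.21 for *MYH9* to -2.26 for *PFN1*, and with size factors from the oocyte markers all 10 lay above 0, from 1.91 for *PFN1* to 4.07 for *ACTB*. The median of all genes was then -1.47 and 2.65, against 0.06 in the main fit. Relative to that median, *ACTB* lay at 1.14, 1.10 and 1.42 with the main, granulosa and oocyte scalings, and *PFN1* at -0.79, -0.79 and -0.74. A scaling moves all genes by nearly the same amount and the median takes that shift out again, so these values had to lie close together and are no check of the direction. *EZR* lay near the median with the main and granulosa scalings, at 0.02 and -0.03, and at 0.50 with the oocyte scaling.

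**Figure D3:**
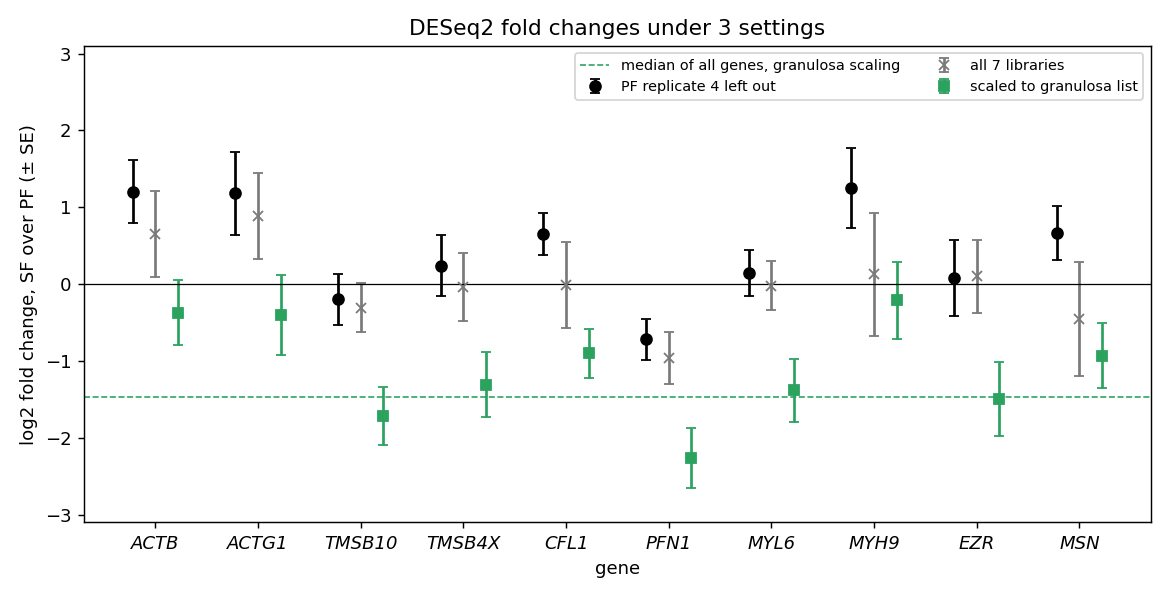
Log2 fold change of SF over PF ± SE for the 10 genes in DESeq2, with PF replicate 4 left out (black circles), with all 7 libraries (grey crosses) and with size factors from granulosa markers (green squares, dashed line at the median of all genes, -1.47). *ACTB* is at 1.20, 0.65 and -0.37 and *PFN1* at -0.72, -0.96 and -2.26 in that order.

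Ratios of related genes within a library do not depend on the scaling. A total of 6 were compared between the 4 PF and 3 SF libraries by exact permutation of the library labels (two-sided, 35 splits), where the smallest possible p is 0.0286. The ratio of *PFN1* to *PFN2*, the other profilin of nonmuscle cells, was 6.02, 6.06, 5.06 and 15.4 in PF replicates 1 to 4 and 3.74, 2.62 and 2.62 in SF replicates 1 to 3. The groups did not overlap, and the mean log2 ratio differed by -1.31 between SF and PF (exact permutation p = 0.0286, 0.171 adjusted over the 6 ratios, which does not pass). That p is the smallest the splits allow. A ratio that reaches it alone cannot pass after the adjustment, so the adjusted p decides nothing here. *PFN2* itself stood at 111 to 235 TPM in PF and 211 to 228 TPM in SF (log2 fold change 0.22 ± 0.21, SE, DESeq2 adjusted p = 0.52).

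The other 5 ratios overlapped between groups. That of *CFL1* to *DSTN*, the gene of destrin, which also severs filaments and belongs to the cofilin family, was 0.477 to 0.560 in PF replicates 1 to 3, 1.74 in PF replicate 4, and 1.01 to 1.27 in SF (log2 difference 0.65, exact permutation p = 0.257, adjusted 0.429). *DSTN* stood at 860 to 1213 TPM in PF and 675 to 774 TPM in SF, all SF libraries below all PF libraries (log2 fold change -0.44 ± 0.21, SE, DESeq2 adjusted p = 0.12). The ratio of *MYH9* to *MYH10*, the heavy chain of nonmuscle myosin IIB, was 0.112 to 0.265 in PF replicates 1 to 3, 0.763 in PF replicate 4 and 0.386 to 0.717 in SF (log2 difference 1.26, exact permutation p = 0.171, adjusted 0.429). *MYH10* thus exceeded *MYH9* in every library.

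The ratio of *ACTB* to *ACTG1* was 1.09 to 2.00 in PF and 1.22 to 1.76 in SF (log2 difference -0.11, exact permutation p = 0.657, adjusted 0.789), with PF replicate 4 kept. That of *TMSB10* to *TMSB4X* was 1.55 to 2.45 and 1.32 to 1.91 (log2 difference -0.30, exact permutation p = 0.286, adjusted 0.429). That of *EZR* to *MSN* was 4.14 to 34.4 and 9.91 to 21.5 (log2 difference -0.10, exact permutation p = 0.914, adjusted 0.914). None of these 3 differences passed the test.

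The ratios depended on PF replicate 4, which the tests above kept because 3 against 3 libraries cannot reach a p of 0.05. Without it the log2 difference was 1.08 for *CFL1* to *DSTN*, 1.83 for *MYH9* to *MYH10*, -0.95 for *PFN1* to *PFN2* and -0.43 for *TMSB10* to *TMSB4X* (exact permutation, adjusted p = 0.150 each). It was -0.76 for *EZR* to *MSN* and 0.03 for *ACTB* to *ACTG1* (exact permutation, adjusted p = 0.240 and 1.00). Within library numbers below 40 and above 40, PF replicate 4 kept in the latter, the difference was 2.38 and 0.22 for *MYH9* to *MYH10*, 1.02 and 0.21 for *CFL1* to *DSTN*, and -0.69 and -1.75 for *PFN1* to *PFN2*.

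**Figure D4:**
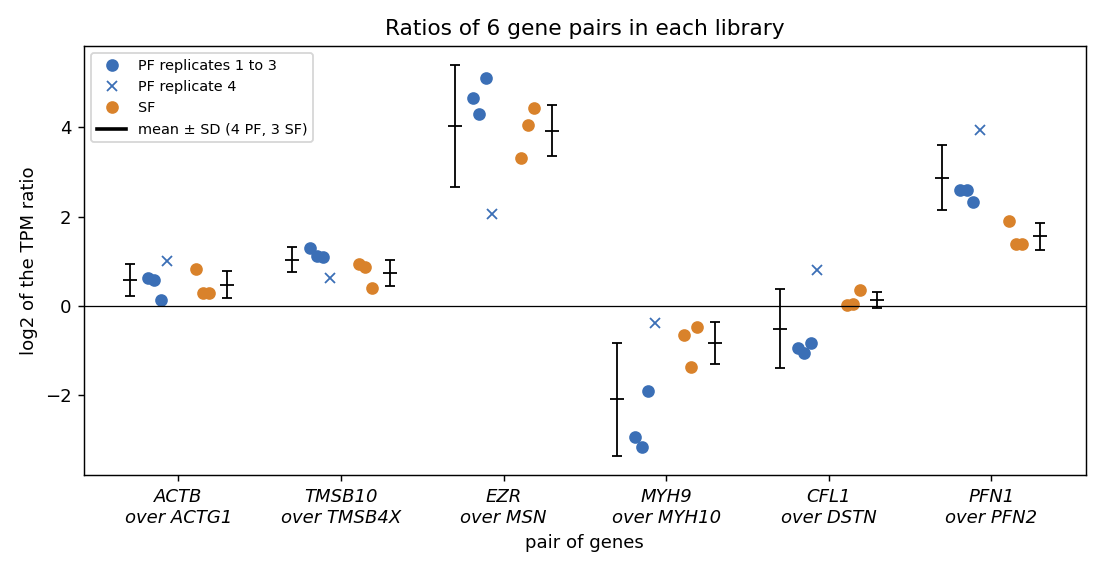
Log2 of the TPM ratio of 6 gene pairs per library. Circles are PF replicates 1 to 3 (blue) and SF (orange), crosses are PF replicate 4, and bars give the mean ± SD over 4 PF and 3 SF libraries. For *PFN1* over *PFN2* all SF circles lie below all PF points, and for *CFL1* over *DSTN* and *MYH9* over *MYH10* PF replicate 4 lies apart from the other PF libraries.

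To see how other genes of the actin cytoskeleton stood, 136 genes in 12 lists were read from the same fit, and 131 had an adjusted p. DESeq2 called 20 higher (15.3%) and 12 lower (9.16%), against 8.14% and 11.0% of all genes, and their median log2 fold change was 0.27. With PF replicate 4 kept 2 were higher and 8 lower, and these 10 were all among the 32. edgeR called 0 of them, and its adjusted p for the 20 genes named here lay between 0.052, for *FLNA*, *GSN*, *TPM2* and *ACTN1*, and 0.18, for *ADD2*. By list, as tested, higher and lower, the counts were 8, 2 and 0 for thymosin and monomer-binding genes, 10, 0 and 1 for the cofilin pathway, 10, 2 and 0 for nonmuscle myosin II, and 10, 2 and 1 for ezrin, moesin and other cortex linkers. They were 18, 2 and 1 for the Arp2/3 complex, 13, 2 and 3 for capping and severing genes, 13, 2 and 2 for crosslinkers, and 13, 2 and 1 for adhesion anchors. The genes named here are the called ones with the largest fold changes and at least 5 TPM in a group.

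Tropomyosins and calponins, which lie along filaments and regulate myosin, had 5 of 10 genes higher and none lower. *TPM1* stood at 333, 375 and 525 TPM in PF replicates 1 to 3, at 1128 TPM in PF replicate 4, and at 999, 991 and 1038 TPM in SF replicates 1 to 3 (log2 fold change 1.39 ± 0.37, SE, DESeq2 adjusted p = 0.0023). *TPM2* stood at 38.3, 38.4 and 44.0 TPM, at 655 TPM, and at 101, 109 and 124 TPM in the same order (1.50 ± 0.32, DESeq2 adjusted p = 0.00015). In both, SF was above PF replicates 1 to 3 with no overlap and PF replicate 4 was above SF. *TPM4* (1.77 ± 0.64) and *CNN1* (2.16 ± 0.72) were also called, although PF replicates 1 to 3 and SF overlapped for both, and both calls were lost when any of PF replicates 1 and 2 or SF replicates 2 and 3 was dropped, that of *CNN1* also without PF replicate 3. The remaining called gene, *TPM3*, was not among those named by fold change. It stood at 359 to 593 TPM in the 4 PF libraries and 719 to 792 TPM in SF, without overlap. Its log2 fold change was 1.09 ± 0.23 (SE, DESeq2 adjusted p = 0.00012, 0.00013 to 0.007 with each library left out in turn, and 0.11 with PF replicate 4 kept). Summed levels of 12 smooth muscle and pericyte markers, 4 of which are also in the actin lists, were 76.5 to 162 TPM in PF replicates 1 to 3, 241 to 282 TPM in SF and 1181 TPM in PF replicate 4, where *LMOD1* was at 0. The largest of them outside PF replicate 4 was *MYH11*, at 48.1 to 86.0 TPM in PF replicates 1 to 3 and 120 to 163 TPM in SF. It was at 28.5 TPM in PF replicate 4. *ACTG2* also lay higher in SF than in PF replicates 1 to 3, whereas *ACTA2*, *TAGLN*, *DES* and *CNN1* overlapped. The part of smooth muscle cells and pericytes in these values was not tested.

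Among crosslinkers and anchors, the filamin *FLNA* was at 17.3 to 23.8 TPM in PF replicates 1 to 3 and 53.3 to 76.9 TPM in SF (1.92 ± 0.29, DESeq2 adjusted p = 2.7e-08), and at 154 TPM in PF replicate 4. *VCL*, vinculin, which joins actin to cell adhesions, was at 25.4 to 33.8 TPM and 53.7 to 132 TPM (1.70 ± 0.49, DESeq2 adjusted p = 0.0062, which ended without PF replicate 1 or 2), and at 117 TPM in PF replicate 4. The severing and capping gene *GSN*, gelsolin, was at 139 to 156 TPM and 371 to 582 TPM (1.68 ± 0.30, DESeq2 adjusted p = 3.2e-06), and at 1971 TPM in PF replicate 4. *FHOD3*, *TWF2* and *PPP1R12A* completed the named genes that rose (1.74 ± 0.43, 1.50 ± 0.44 and 1.25 ± 0.48). *TWF2* lost the call when PF replicate 1 or 2 or SF replicate 1 was dropped, and *PPP1R12A* when any library but PF replicate 3 was. With PF replicate 4 kept, 8 of the 10 named higher genes lost the call, the other 2 (*GSN* and *TPM2*) had no adjusted p, and the log2 fold changes of *TPM4*, *GSN* and *TPM2* turned (-0.15, -0.49 and -0.86).

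Of the 10 named genes that fell, 4 lost the call with PF replicate 4 kept and 0 turned. *ACTN1*, alpha-actinin 1, which bundles filaments, stood at 122, 83.1, 69.0 and 84.4 TPM in PF replicates 1 to 4 and at 31.2, 28.5 and 13.7 TPM in SF replicates 1 to 3, with no overlap (-1.80 ± 0.38, DESeq2 adjusted p = 0.00011, and 4.2e-05 with PF replicate 4 kept). *ARPC1B*, a subunit of the Arp2/3 complex that starts branched filaments, stood at 174, 408, 172 and 241 TPM and at 97.3, 75.7 and 18.8 TPM in the same order (-1.89 ± 0.63, DESeq2 adjusted p = 0.019, which ended without PF replicate 2 or SF replicate 2). *STK10*, a kinase of ezrin and moesin, stood at 40.4, 20.4, 12.4 and 8.42 TPM and at 4.71, 5.59 and 7.29 TPM (-1.87 ± 0.49, DESeq2 adjusted p = 0.0021). *PDLIM1* (-1.91 ± 0.61) and the formin *FMNL3* (-2.13 ± 0.74) were likewise without overlap, but both lost the call when PF replicate 1 or 2 or SF replicate 2 was dropped, and *FMNL3* also without SF replicate 1.

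Filament nucleators of the formin and Spire list had 3 genes lower and 1 higher of 12. *SPIRE1*, a nucleator known from oocytes, was at 6.48 to 20.2 TPM in the 4 PF libraries and 4.46 to 5.22 TPM in SF (-1.23 ± 0.44, DESeq2 adjusted p = 0.032, which ended with PF replicate 4 kept at 0.12 and in 5 of the 6 fits that left out a library, all but that without PF replicate 3). *DAAM2* was at 1.87 to 9.61 TPM and 1.28 to 2.09 TPM (-2.09 ± 0.40, DESeq2 adjusted p = 1.5e-05). *ADD2*, *TMOD1* and *PLS1* completed the named genes that fell (-2.65 ± 1.00, -1.92 ± 0.54 and -1.86 ± 0.71), with PF replicate 4 within or below the SF range for each. The call of *TMOD1* was lost without PF replicate 1, and those of *ADD2* and *PLS1* when any of PF replicates 1 to 3 or SF replicate 1 was dropped, that of *ADD2* also without SF replicate 3. The oocyte markers fell in the same libraries, as given above, and their part in these falls was not tested.

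Close to the 10 genes stood *MYL6B* and *NHERF1*, the genes called higher both with and without PF replicate 4, which are named after their values were seen. *MYL6B*, a paralog of *MYL6*, stood at 88.6, 96.4, 95.7 and 69.5 TPM in PF replicates 1 to 4 and at 236, 213 and 124 TPM in SF replicates 1 to 3 (1.12 ± 0.35, DESeq2 adjusted p = 0.012 in both fits, which ended in 4 of the 6 fits that left out a library). *NHERF1*, a scaffold bound by ezrin and moesin, stood at 96.2, 83.5, 94.4 and 83.9 TPM and at 168, 198 and 220 TPM (1.20 ± 0.30, DESeq2 adjusted p = 0.0011, and 0.00036 to 0.023 with each library left out in turn). In both the SF libraries were above all PF libraries.

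**Figure D5:**
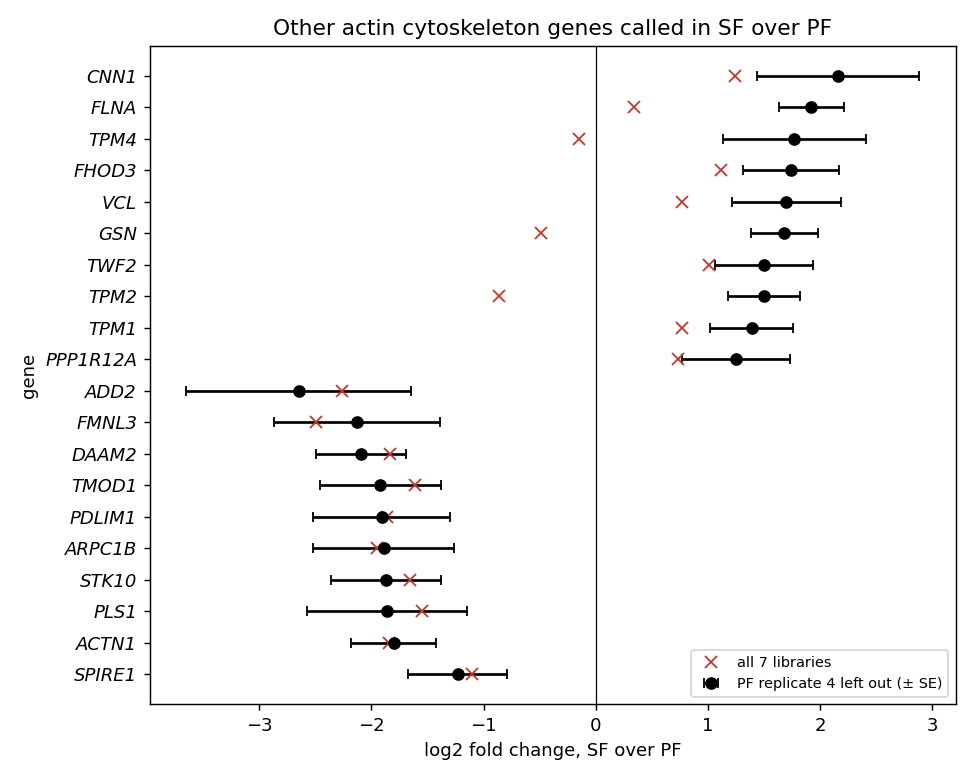
Log2 fold change of SF over PF for the 10 higher and 10 lower named genes of the actin cytoskeleton lists, as black circles ± SE with PF replicate 4 left out and red crosses with all 7 libraries. The crosses of the genes that rose lie to the left of their circles, with *TPM4*, *GSN* and *TPM2* below 0, and those of the genes that fell lie near their circles.

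Finally, the pattern of *ACTB* and *TMSB10* over the 7 libraries was set beside that of the 8129 genes with a mean of at least 10 TPM. The libraries share their depth, stage and cell makeup across genes, and the correlations are descriptions without a test. The genes most like *ACTB* by Pearson's r of log2(TPM + 1) were *TIMP3*, *UBAP1*, *VCL*, *HNRNPM* and *KPNA1* (0.984 to 0.989, Spearman's rank correlation 0.93 to 1.00, and r of 0.97 to 0.99 without the 2 libraries farthest from the median). *TIMP3*, an inhibitor of matrix metalloproteinases, ran from 51.3 TPM in PF replicate 2 to 484 TPM in SF replicate 3 and reached 428 TPM in PF replicate 4. The genes most like *TMSB10* were *MIS12*, *DAZAP1*, *ATP5MK*, *LOC783202* and *CXCL2* (r of 0.845 to 0.922). Without the 2 libraries farthest from the median, r was 0.65 for *MIS12*, 0.90 for *DAZAP1*, 0.87 for *ATP5MK* and 0.69 for *LOC783202*. That of *CXCL2* rested on single libraries, since r without the 2 farthest was -0.88.

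Among the 45 pairs of the 10 genes, r ran from -0.87 for *MYL6* and *EZR* to 0.97 for *CFL1* and *MSN*, and 34 pairs were above 0. *ACTB* and *ACTG1* had r of 0.91 (0.95 without PF replicate 4), and *ACTB* and *PFN1* -0.41 (-0.95 without PF replicate 4). The libraries highest in the actins among PF replicates 1 to 3 and SF were thus the lowest in *PFN1*, while PF replicate 4 was high in both.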

How the data were processed

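For 4 PF and 3 SF libraries, cDNA was made with SMART-Seq v4, a kit without strand marking. Per the study's methods, trimmed reads were assigned to ARS-UCD1.3 transcripts by Salmon. Per the file headers, the authors deposited for each library estimated counts, which need not be whole, TPM and the effective length of each transcript. No replicate was pooled with another, and the study calls its follicle pools biological replicates. Whether pools shared animals is not stated in the sources used here, so the p-values measure the spread between pools. Titles of the samples gave group and replicate.

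Symbols were looked up by accession in RefSeq's gene table for ARS-UCD2.0 (50205 of 76123, 66.0%), used for names alone, so no coordinates are given. Unmatched transcripts held 9.71% to 10.7% of the counts and stayed in the totals. Estimated counts and TPM were summed per gene, and the counts rounded. The replicates of a group differed by a chi-square of at least 98.0 per degree of freedom, so none was a duplicate. All genes were fitted in DESeq2 (version 1.42.0, R 4.3.3) and tested by Wald's method, as in the study, with PF replicate 4 left out, median-of-ratios size factors and a Benjamini-Hochberg adjusted p below 0.05. Alternatives were edgeR 4.0.16 (quasi-likelihood), limma 3.58.1 with a variance trend on log2 TPM after adding 1 or 0.1, restricted to genes reaching 1 TPM in 3 libraries, TMM factors, a transcript length offset, size factors from oocyte or granulosa markers, a filter of 10 counts in 3 libraries, PF replicate 4 kept, a block on replicate number, the library number above or below 40 as a covariate, an adjusted p below 0.01 and each library left out. The 6 ratios were tested with an exact two-sided permutation of the difference of mean log2 ratios, adjusted with Benjamini-Hochberg. Shares of counts were compared as ratios of group means over all 7 libraries, also with each library left out and by summed TPM, with no test. DESeq2 and edgeR were also run on simulated counts with set changes, to check signs and the median of unchanged genes. The simulation drew on DESeq2's own dispersions, so it cannot tell how many calls in the real data are false. Sums and ratios were computed with Python 3.11.15 and plotted with matplotlib 3.10.9.

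Members and lists were chosen with earlier results of these data known. Named besides the 10 genes were the called genes of the actin lists with the largest fold changes, up to 10 in each direction with a mean of at least 5 TPM in a group, the paralogs in the ratios, and the 5 genes of at least 10 TPM most correlated with *ACTB* and with *TMSB10*. Of 139 listed genes, *TMSB15A*, *DIAPH1* and *FMN2* were not matched, and the counts of 1 list are not reported here. Marker lists of endothelial, immune and surface epithelial cells gave summed levels of 34.7 to 48.8, 43.1 to 89.2 and 155 to 223 TPM in PF replicates 1 to 3, 40.6, 11.7 and 33.3 TPM in PF replicate 4, and 22.5 to 103, 5.16 to 80.7 and 58.4 to 160 TPM in SF. Of the immune sums in PF replicates 1 to 3, *CSF1R* alone was 89.2, 62.0 and 31.5 TPM. At least 1 TPM was reached by 1, 2 and 4 immune markers in these, and by 8, 3 and 3 in SF. Among endothelial markers *CLDN5* was the highest in every library, at 17.9 to 91.7 TPM. Of 11 tubulin genes tested, 2 were higher in SF (18.2%, *TUBA1A* and *TUBB*) and none lower, against 8.14% and 11.0% of all genes. With PF replicate 4 kept, *TUBA1A* was not called (DESeq2 adjusted p = 0.52) and *TUBB* had no adjusted p. Reads carried no molecular identifiers.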

Additional observations from a re-analysis of the deposited data

Results flagged for a closer look

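Among 17 values examined in the 4 PF libraries, 6 had PF replicate 4 farther from the other 3 than Dixon's 95% limit for 4 samples. Chance flags about 1 in 20 such groups. *ACTB* stood at 9533 TPM in PF replicate 4 and at 3377 to 4413 TPM in the others. *CFL1* stood at 1587 TPM against 482 to 628 TPM, *MYL6* at 1860 TPM against 1425 to 1457 TPM, and *MSN* at 193 TPM against 27.4 to 46.9 TPM. The TPM ratio of *CFL1* to *DSTN* was 1.74 against 0.477 to 0.560, and that of *PFN1* to *PFN2* was 15.4 against 5.06 to 6.06. The 17 values come from the same 4 libraries, and the study left PF replicate 4 out of its own comparison. Its stromal fibroblast markers summed to 6955 TPM against 430 to 643 TPM in the other PF libraries, and their part in these values was not tested.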

How the results depend on the processing

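Of all genes, 2876 were called in the main fit, 0 by edgeR, 792 and 2 by limma with pseudocounts of 1 and 0.1, 8777 with oocyte and 8001 with granulosa size factors, 858 with all 7 libraries, 1588 at an adjusted p below 0.01 and 1887 to 3947 with a library left out. The share of calls that were higher was 42.6%, and 29.4% by limma with a pseudocount of 1, 99.6% with oocyte and 1.26% with granulosa size factors. Of the 10 genes, 1 was called higher in the main fit, 0 by edgeR, by both limma fits, with granulosa size factors, with all 7 libraries and at 0.01, 2 with TMM factors or the library number, 9 with oocyte size factors and 0 to 3 with a library left out. The 1 lower call became 0 by edgeR, limma, TMM, oocyte size factors, all 7 libraries and 0.01, 6 with granulosa size factors, and 0 to 1 with a library left out. Of the actin lists, 20 higher calls became 0 by edgeR and granulosa size factors, 7 and 0 by limma, 95 with oocyte size factors, 2 with all 7 libraries, 11 at 0.01 and 9 to 28 with a library left out. The 12 lower calls became 0 by edgeR and oocyte size factors, 1 and 0 by limma, 68 with granulosa size factors, 5 at 0.01 and 4 to 13 with a library left out. Apart from the marker scalings, whose construction moves all genes, the cause was not tested.

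The log2 fold changes that turned with granulosa size factors were those of *ACTB* (-0.37), *ACTG1* (-0.40), *TMSB4X* (-1.31), *CFL1* (-0.90), *MYL6* (-1.38), *MYH9* (-0.21), *EZR* (-1.50) and *MSN* (-0.93), and with oocyte size factors those of *TMSB10* (2.39) and *PFN1* (1.91). With all 7 libraries *TMSB4X* (-0.04), *CFL1* (-0.01), *MYL6* (-0.02) and *MSN* (-0.45) turned. *EZR* turned by limma (-0.22 in both), with the library number (-0.35) and without PF replicate 2 (-0.01) or SF replicate 3 (-0.50), *TMSB10* without PF replicate 3 (0.11) and *MYL6* without SF replicate 1 (-0.08). With a library left out, *EZR* ran from -0.50 to 0.43 and *MYL6* from -0.08 to 0.27. The log2 ratio of *ACTB* to *ACTG1* was -0.29 to 0.03 with a library left out and 0.21 within library numbers below 40, and that of *EZR* to *MSN* -0.76 to 0.26 and 0.67 within those above 40 with PF replicate 4 kept.

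Same-numbered replicates deviated together with r of 0.26, -0.04 and 0.40, and differently numbered ones with r of -0.42 to 0.26. Whether the numbers pair the samples cannot be told from these values, and the titles do not state it. With the replicate block 4077 genes were called, 4 of the 10 genes were higher (*ACTG1*, *CFL1* and *MYH9* besides *ACTB*), 35 of the actin lists were higher, *EZR* turned (-0.11) and the ratio of *ACTB* to *ACTG1* was 0.03.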
